A study of Homo sapiens with 4 samples.

Results

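The passage from G1 into S phase was read through 10 genes on Illumina bead arrays of LNCaP cells, a human prostate cancer line that responds to androgen. They encode the kinases CDK2 and CDK4, the cyclins CCNE1, CCNE2, CCNA2 and CCND1, the phosphatase CDC25A, the inhibitor CDKN1B, and the ubiquitin ligase subunits SKP2 and CKS1B. CDK2 and SKP2 were picked from these same arrays for their strong fall after miR-31, so their values are described without a test, and the other 8 genes were listed with results of these arrays known. All probes that the platform annotation assigns to 1 of these symbols alone were taken, which gave 17 probes for the 10 genes, out of 20046 genes named on the array. One group of cells had received 50 nM of miR-31 and the other 50 nM of a control microRNA, miR-NC, for 48 h, both in medium with serum. There were 2 arrays per group. The labels do not state that the repeats are separate cultures, and p-values therefore cover only the spread between these arrays, which may be technical. Whole cultures were read, so fewer cells in a cell cycle phase and less RNA per cell cannot be told apart.

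Entry into S phase is driven by cyclin-dependent kinases. CDK4 with cyclin D1 (CCND1) starts to phosphorylate the retinoblastoma protein and so frees E2F transcription factors, which switch on the genes of cyclin E, cyclin A and CDC25A. CDK2 then binds cyclin E and later cyclin A. The bound CDK2 becomes active once CDC25A has removed inhibitory phosphates from it, and it is held back by p27, the product of CDKN1B. The ligase SCF, with SKP2 as its substrate receptor and CKS1B as cofactor, marks p27 for destruction.

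The microRNA is shown first in its RefSeq form, and whether the reagent had this sequence was not checked. The mature miR-31-5p, as RefSeq gives it, derives from chr9:21512158-21512178 on the minus strand (GRCh38.p14) and has 21 bases. The capitals mark its seed, bases 2 to 8, the part that pairs with target messages.
hsa-miR-31-5p: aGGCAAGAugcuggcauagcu

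Of 47231 probes, 38.1% and 37.6% were detected on miR-NC replicates 1 and 2, against 34.6% and 40.7% on miR-31 replicates 1 and 2. The widest difference thus lay within the miR-31 group. Of 9 luminal prostate markers with a probe, 8 were detected on all 4 arrays, among them KLK3, TMPRSS2 and FOLH1, while KRT18 was detected on 1 array at most. KRT5 and KRT14, keratins of basal cells, were detected on no array. Of the 9 markers of basal, stromal and blood cells with a probe, 3 were detected on all 4 arrays (VIM, CD68 and HBB).

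Among the G1/S genes, the message of CDK2 was the one that differed most between the groups, SKP2 and CCNA2 came next, and CDKN1B lay near 0. Of the 10 genes, 9 had a probe bright enough to test, meaning a detection p under 0.05 on at least 2 of the 4 arrays. All 11 of their tested probes were detected on all 4 arrays, so none entered through 1 group alone. Leaving aside CDK2 and SKP2, 4 of the 7 tested genes were lower in miR-31 by limma at an adjusted p under 0.05 (CCNA2, CDC25A, CCND1 and CDK4), 0 were higher and 3 did not pass. Of all 10754 genes tested, 5.24% were lower and 2.43% higher by the same test. The groups did not overlap, with miR-31 below, in 5 of these 7 genes, against 30.1% of all genes. The median log2 change of the 9 tested genes was −0.64, or −0.58 without CDK2 and SKP2, and that of all genes was −0.02. These counts describe genes listed with the results known and are no independent evidence of a direction. With 2 arrays a group, the smallest two-sided p of an exact permutation test is 0.333, and limma reaches lower values by pooling the variance of 18354 probes. When miR-31 replicate 1 was left out, limma called 0 probes (3022 had an unadjusted p under 0.05), and when replicate 2 was, it also called 0 (2759), so all calls given here were lost in both cases.

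**Figure D1:**
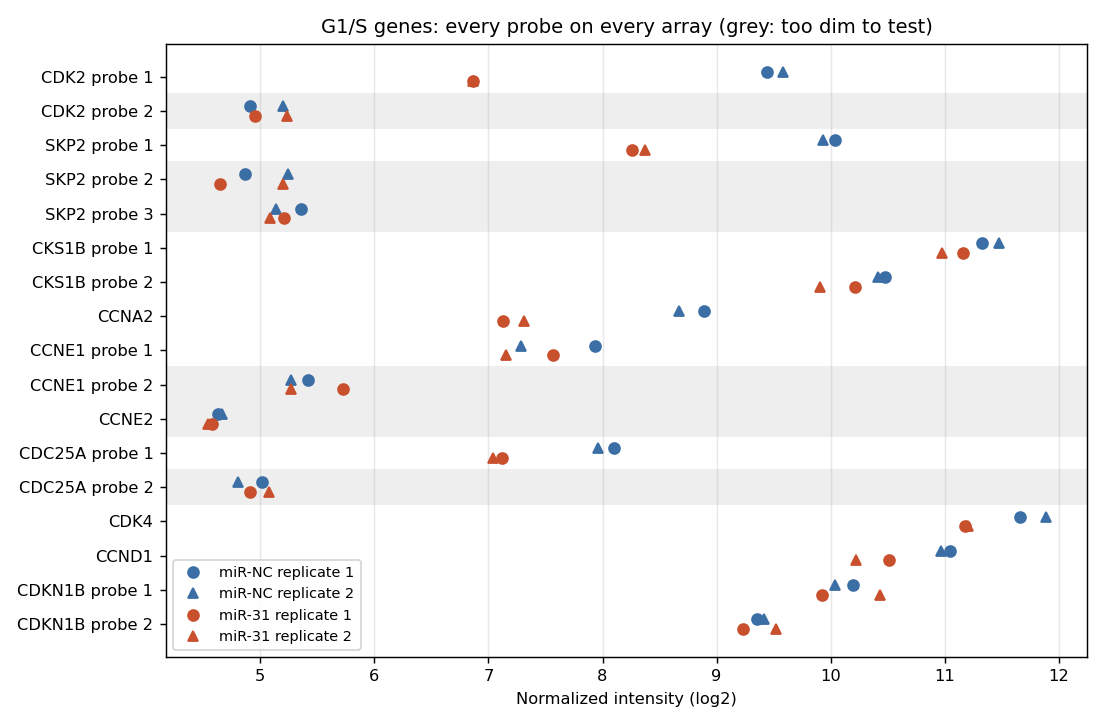
Normalized log2 intensity of all 17 probes of the G1/S genes on each array, with miR-NC in blue, miR-31 in red, replicate 1 as circles and replicate 2 as triangles. Grey rows are the 6 probes too dim to test. Both miR-31 arrays lie at 6.87 for CDK2 probe 1, against 9.44 and 9.58 in miR-NC, and the groups interleave for CDKN1B and CCNE1. Levels of different probes cannot be set against each other.

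CDK2, the kinase of S-phase entry (chr12:55966830-55972789 in the RefSeq annotation of GRCh38.p14), ranked 3rd from the lowest log2 change among the 10754 genes at its bright probe. Its normalized log2 intensity read 9.44 and 9.58 in miR-NC against 6.87 and 6.87 in miR-31. The 2 miR-31 arrays sat far below both miR-NC arrays, with a gap of 2.57 between the groups. The change was −2.64 ± 0.20 (SE), a 6.24-fold lower signal. It could be seen before any normalization, in raw signals of 966.9 and 756 (miR-NC) against 141.9 and 176.3 (miR-31). In the authors' normalized values the same probe read 622.3 and 682.1 against 102.4 and 102.2. The size of the fall depended on how background was handled: it was 4.57-fold with no background correction. A second CDK2 probe was detected on no array, with detection p from 0.104 to 0.462, and carries no information on the change.

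SKP2, the receptor through which SCF binds p27 (chr5:36152111-36193530), stood 50th from the bottom among all genes. Its bright probe read 10.04 and 9.93 in miR-NC against 8.26 and 8.37 in miR-31. Both miR-31 arrays were below both controls by at least 1.56. The log2 change was −1.67 ± 0.17 (SE), a 3.19-fold lower signal. The other 2 SKP2 probes were detected on no array. The platform annotation ties them to a different RefSeq transcript from that of the bright probe, so the value may describe 1 transcript form, and which transcripts the probes read was not checked.

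CKS1B, the small protein that SKP2 needs to bind p27 (chr1:154974681-154979251), did not pass the test. Its brighter probe read 11.32 and 11.47 in miR-NC against 11.16 and 10.98 in miR-31. The groups did not overlap, but the gap of 0.16 was close to the differences between replicates. The log2 change was −0.33 ± 0.14 (SE) with a 95% interval from −0.65 to −0.00, and it did not pass in limma (adjusted p = 0.225). The second probe gave a like value of −0.39 ± 0.16 (SE; limma adjusted p = 0.205). RefSeq lists several processed copies of CKS1B elsewhere in the genome, and whether these probes also read them was not tested.

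Of the cyclins that partner CDK2, CCNA2 passed the test, CCNE1 did not and CCNE2 could not be tested. CCNA2, cyclin A2, which carries CDK2 through S phase (chr4:121816444-121823883), read 8.89 and 8.67 in miR-NC against 7.13 and 7.32 in miR-31. Both miR-31 arrays were at least 1.36 below the controls. It fell 2.96-fold (log2 change −1.56 ± 0.21, SE; limma adjusted p = 0.00547) and ranked 79th from the lowest change among all genes. Its call was lost with arrays aligned on their medians in place of quantile normalization (−1.65, adjusted p = 0.276) and without either miR-31 array (−1.47, adjusted p = 0.0881, without replicate 1 and −1.66, adjusted p = 0.0833, without replicate 2).

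CCNE1, cyclin E1, the partner of CDK2 at the start of S phase (chr19:29811991-29824312), read 7.93 and 7.28 in miR-NC against 7.57 and 7.16 in miR-31. The groups overlapped, and the miR-NC arrays differed from each other more than the group means did. The log2 change was −0.25 ± 0.28 (SE; limma adjusted p = 0.683), with a 95% interval from −0.89 to 0.39 that still holds a fall of the size seen for CCND1. It stood at 0.08 without miR-NC replicate 1 and at −0.57 without miR-NC replicate 2, so 1 control array set its sign. The second CCNE1 probe was detected on 1 miR-31 array alone and was not tested. CCNE2, cyclin E2, had 1 probe, which was detected on no array, with detection p from 0.732 to 0.935. Its signal was not detectable in either group.

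CDC25A, the phosphatase that activates CDK2 (chr3:48157146-48188417), read 8.10 and 7.96 in miR-NC against 7.12 and 7.04 in miR-31. The gap between the groups was 0.84, larger than the difference within either. It fell 1.93-fold (log2 change −0.95 ± 0.22, SE; limma adjusted p = 0.0396). The call was lost in 7 of the 14 alternatives run, where values ranged from −1.03 to −0.73 with adjusted p between 0.00987 and 0.915. Among these were the loss of miR-NC replicate 1 (−0.88, adjusted p = 0.133) and of either miR-31 array (−0.99 without replicate 1 and −0.91 without replicate 2). A second CDC25A probe was detected on no array.

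CDK4 and CCND1, the kinase and cyclin that act first on the retinoblastoma protein, had smaller changes. CDK4 (chr12:57747727-57752310) read 11.66 and 11.88 in miR-NC against 11.18 and 11.20 in miR-31. It fell by 0.58 ± 0.14 on the log2 scale (SE; limma adjusted p = 0.0441). CCND1 (chr11:69641156-69654474) read 11.05 and 10.97 in miR-NC against 10.51 and 10.22 in miR-31. It fell by 0.64 ± 0.16 (SE; limma adjusted p = 0.0467), or 1.56-fold. Both sat just inside the threshold, and neither passed with the authors' normalized values (adjusted p = 0.0524 and 0.0575), with no filter on dim probes, with no variance trend or under median alignment. CDK4 was also lost with cyclic loess (adjusted p = 0.0531) and CCND1 with no background correction (0.0519). Without miR-NC replicate 2 the CDK4 value was −0.47 (adjusted p = 0.104), and without miR-NC replicate 1 that of CCND1 was −0.60 (adjusted p = 0.117). Without miR-31 replicate 1 they stood at −0.57 and −0.79, and without miR-31 replicate 2 at −0.59 and −0.49.

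CDKN1B, which encodes p27, the inhibitor that SCF with SKP2 destroys (chr12:12717368-12722369), showed no detectable difference at the message. Its brighter probe read 10.19 and 10.04 in miR-NC against 9.92 and 10.43 in miR-31. The miR-31 arrays lay on either side of both controls. The log2 change was 0.06 ± 0.19 (SE; limma adjusted p = 0.895), with a 95% interval from −0.38 to 0.50. The second probe gave −0.01 ± 0.18 (SE; limma adjusted p = 0.990). The sign depended on single arrays: the value was −0.19 without miR-31 replicate 2, 0.32 without miR-31 replicate 1 and −0.01 without miR-NC replicate 2, and −0.05 under median alignment. The arrays read messenger RNA, and the amount of p27 protein was not measured.

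Ordered from the lowest log2 change to the highest, the genes ran CDK2, SKP2, CCNA2, CDC25A, CCND1, CDK4, CKS1B, CCNE1 and CDKN1B. CDK2 and SKP2 stand first by the way they were picked. From CCNA2 on, the 95% intervals of each pair of neighbours overlapped, so their order is uncertain. Overlap of 2 intervals does not show that the genes changed alike. Genes further apart could be separate: the interval of CCNA2 (−2.04 to −1.08) lay below that of CDK4 (−0.90 to −0.26) and that of CCND1. No test of the difference between 2 genes was run.

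**Figure D2:**
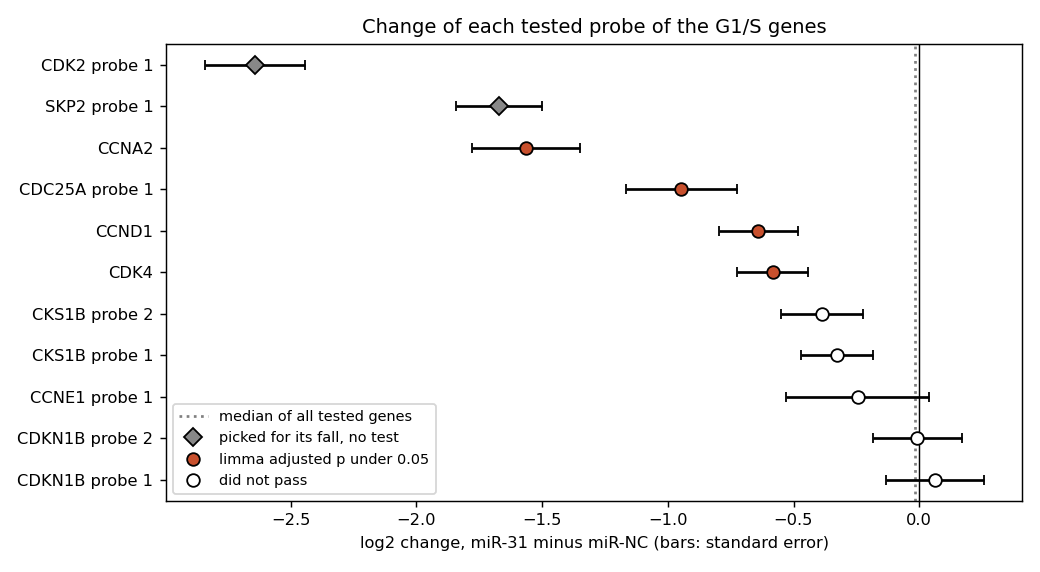
log2 change (miR-31 minus miR-NC) of the 11 tested probes, with standard errors as bars. Grey diamonds are CDK2 and SKP2, picked for their fall and not tested, red circles passed at a limma adjusted p under 0.05 and white circles did not. CDK2 lies at −2.64, and both CDKN1B probes lie on the dotted median of all tested genes (−0.02) within their standard errors.

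The genes whose 4 array values ran closest to those of CDK2, after each gene was centred on its own mean, were UHRF1, EXO1, MCM10, E2F2 and MCM2. Their root mean square distances from CDK2 over the 4 arrays were 0.07, 0.13, 0.14, 0.17 and 0.18 on the log2 scale, and MCM10 was detected on only 1 of the miR-31 arrays. UHRF1, for example, read 9.19 and 9.23 in miR-NC against 6.56 and 6.43 in miR-31. The genes closest to SKP2 were PARP1, MCM3, FANCG, WBP11 and RFC4, at distances from 0.01 to 0.06. PARP1 read 12.14 and 12.02 in miR-NC against 10.33 and 10.44 in miR-31, with −1.69 ± 0.14 (SE) as its change. With 4 arrays in 2 groups, closeness of this kind mostly reflects a like difference between the groups.

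Beyond the 10 genes, 58 other cell cycle genes were read in 5 lists written with earlier results of these arrays known. The lists also hold genes of mitosis, such as CDK1, CCNB1, CDC20 and PLK1, so their counts are not limited to S-phase entry. Of the 58 genes, 48 were tested, 14 were lower in miR-31, 2 were higher and 32 did not pass, with a median log2 change of −0.37. Over all genes tested, 5.24% were lower and 2.43% higher, the shares against which the counts of each list are to be read. The 2 higher genes were the CDK inhibitors CDKN1A and CDKN2B, and each of the 5 lists held at least 1 lower gene.

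Among 12 further genes of cyclins, cyclin-dependent kinases and MNAT1, an assembly factor of the kinase that activates CDKs, 8 were tested, 3 were lower, 0 were higher and the median log2 change was −0.35. All 3 belong to the mitotic kinase. CDK1, which can also stand in for CDK2 at S-phase entry in mice, read 10.51 and 10.40 in miR-NC against 8.83 and 9.16 in miR-31, and fell 2.75-fold (limma adjusted p = 0.00375). Its second tested probe also fell (limma adjusted p = 0.0151). CCNB2 and CCNB1, its cyclins, fell 2.52-fold and 2.33-fold. CCNC, the cyclin of the Mediator kinase, and CDK7, the kinase that activates other CDKs, had log2 changes of −0.42 ± 0.15 and −0.28 ± 0.16 (SE) and did not pass (limma adjusted p = 0.146 and 0.341). Further CCNC probes stood at −0.41 and −0.05 and did not pass. CCND3, another D-type cyclin, read 10.24 and 9.93 in miR-NC against 10.30 and 9.89 in miR-31, so the groups overlapped fully (log2 change 0.01 ± 0.19, SE). CDK6, CCND2, CCNA1 and CDK3 were too dim to test.

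CDK inhibitors and adaptors did not move as one. Of 9 listed, 7 were tested, 2 were higher, 1 was lower and the median log2 change was 0.26. CDKN1A, the inhibitor p21, read 13.14 and 12.78 in miR-NC against 14.02 and 14.09 in miR-31, and rose 2.14-fold (limma adjusted p = 0.00474). CDKN2B, the inhibitor p15 of CDK4 and CDK6, read 6.14 and 6.45 against 7.42 and 7.34 and rose 2.12-fold (limma adjusted p = 0.0396). Its other probe, at 0.85, missed the threshold (adjusted p = 0.0902). The size of the CDKN2B rise depended on the processing. The log2 change was 1.09 as reported, 0.73 with no background correction and 1.22 with the authors' values. CDKN2B lost its call without miR-NC replicate 1 (0.93, adjusted p = 0.130). CDKN3, a phosphatase that removes the activating phosphate of CDK2, fell 2.11-fold. The CDK2-associated proteins CDK2AP2 and CDK2AP1 had log2 changes of 0.63 ± 0.16 and 0.26 ± 0.12 (SE) and did not pass (limma adjusted p = 0.0551 and 0.243). CDK2AP2 passed in limma with the stricter filter on dim probes (adjusted p = 0.0464), with the replicate number as a block (0.0204) and with probes averaged per gene (0.0323). Averaging left its value unchanged at 0.63. Without miR-NC replicate 2 the CDK2AP2 value was 0.74.

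The core genes of SCF had values nearer 0 than SKP2, a difference that was not tested. Since SKP2 was picked for its fall, such a gap was partly set in advance and does not set SKP2 apart. Of 16 genes of regulated protein destruction, 15 were tested, 3 were lower and 0 were higher, with a median log2 change of −0.07. The SCF core itself had values near 0, with SKP1, the adaptor, at 0.22 ± 0.14, CUL1, the scaffold, at 0.24 ± 0.17 and RBX1, the RING subunit, at 0.18 ± 0.17 (SE). FBXW7, the receptor through which SCF takes cyclin E, stood at 0.56 ± 0.25 (SE; limma adjusted p = 0.221). The 3 lower genes were UBE2C, a ubiquitin-conjugating enzyme of mitotic exit, at 1.78-fold, FBXO5, an inhibitor of the anaphase-promoting complex, at 1.92-fold, and CKS2, a paralog of CKS1B, at 1.57-fold. FBXO5 had a second tested probe at −0.08, and with the mean of both its value was −0.51 and did not pass (adjusted p = 0.163). The second CKS2 probe stood at −0.62 and did not pass (limma adjusted p = 0.140). CDC20, an activator of the anaphase-promoting complex, stood at −0.68 ± 0.21 (SE; limma adjusted p = 0.0947) and did not pass, but did without miR-NC replicate 2 (−0.72, adjusted p = 0.0420) and with the replicate block (adjusted p = 0.0126). CDC34, a ubiquitin-conjugating enzyme of SCF, was detected on 1 miR-NC array and both miR-31 arrays, and its 4 values of 4.59, 5.91, 5.69 and 7.97 scattered widely (log2 change 1.58 ± 0.67, SE; limma adjusted p = 0.204). It passed without miR-NC replicate 2 (2.24, adjusted p = 0.00832), under median alignment (1.73, adjusted p = 0.0151) and with the replicate block (adjusted p = 0.00256).

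Kinases and phosphatases that set the phosphorylation of CDKs all had negative values. Of 8 listed, 6 were tested, 3 were lower and the median log2 change was −0.67. CHEK1 and CHEK2, checkpoint kinases that restrain CDC25 phosphatases, fell 2.91-fold and 2.25-fold (limma adjusted p = 0.00891 and 0.0243), with a second CHEK2 probe at −0.76 (adjusted p = 0.212). The log2 changes of CHEK1 and CHEK2, −1.54 and −1.17 as reported, were −1.20 and −0.83 with no background correction. With the authors' values they were −1.60 and −1.26. CDC25B, a relative of CDC25A that acts in G2, fell 1.60-fold, just inside the threshold (limma adjusted p = 0.0497), and lost its call without any 1 of the 4 arrays. PLK1, a mitotic kinase, and CDC25C, the phosphatase of mitotic entry, had log2 changes of −0.66 and −0.54 and did not pass. The CDC25C probes disagreed, at −0.54, −0.56 and 0.27.

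Among 13 retinoblastoma and E2F genes, 12 were tested, 4 were lower and 0 were higher, with a median log2 change of −0.73. E2F2, an activating E2F, read 8.09 and 8.07 in miR-NC against 5.82 and 5.47 in miR-31 and fell 5.41-fold (limma adjusted p = 0.00198). Its miR-31 values lay near the lowest detected signal, which was 5.36 or more on each array, and the size of the fall depended on background handling: the log2 change was −2.44 as reported, −1.66 with no background correction and −2.95 with the authors' values. TFDP2 and TFDP1, the dimer partners of the E2Fs, fell 2.38-fold and 1.70-fold, and RBL2, a pocket protein, fell 1.64-fold. The log2 change of TFDP2 was −1.25 as reported, −0.86 with no background correction and −1.39 with the authors' values. E2F7, a repressive E2F, stood at −1.26 ± 0.35 (SE; limma adjusted p = 0.0716) and passed without miR-NC replicate 1 (−1.45, adjusted p = 0.0440), with the replicate block (adjusted p = 0.0116) and with probes averaged per gene (0.0369). With probes averaged per gene, the E2F7 value was unchanged at −1.26. RB1 itself read 7.47 and 6.98 against 6.94 and 7.50, and the groups overlapped.

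**Figure D3:**
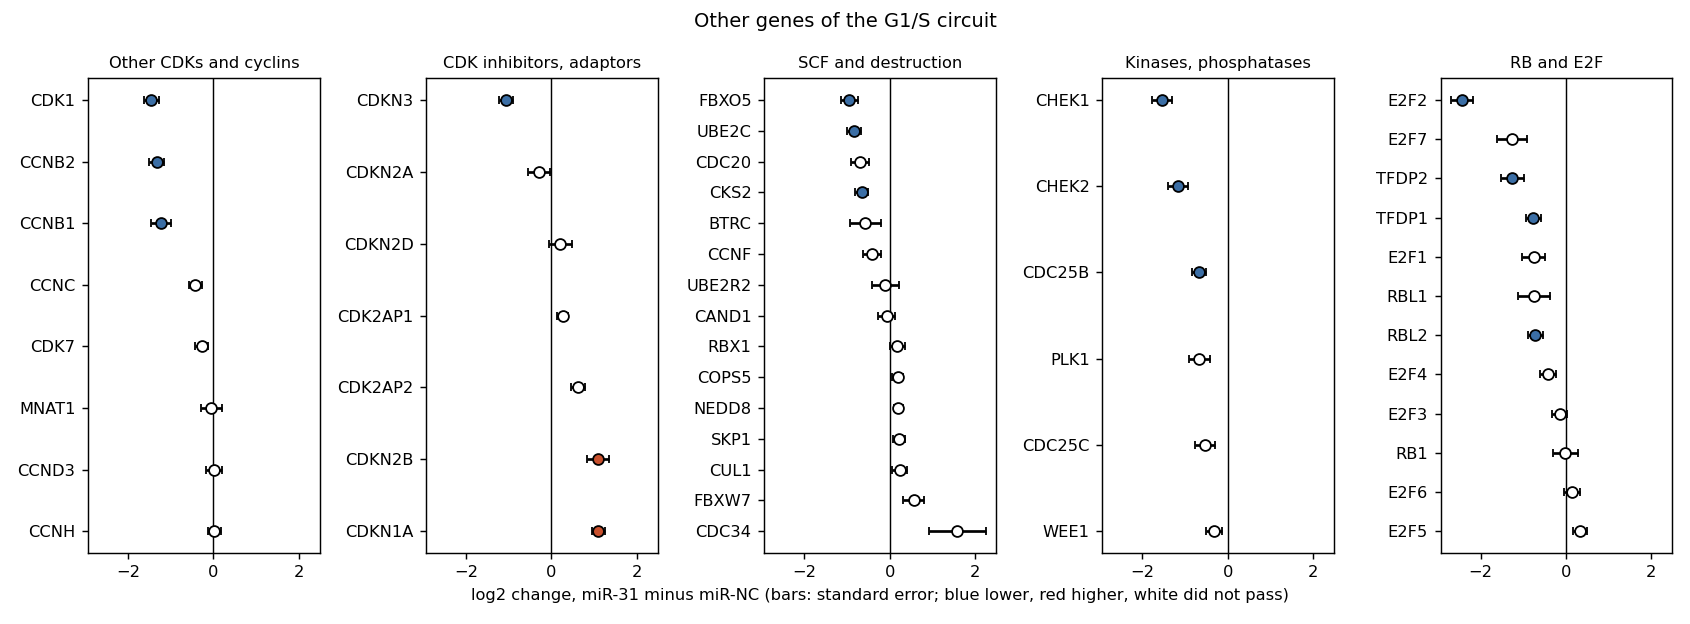
log2 change (miR-31 minus miR-NC) of the 48 tested genes of the 5 lists, with standard errors as bars. Blue points passed the test on the lower side, red points on the higher side, and white points did not pass. E2F2 reaches −2.44, CDKN1A 1.10, and the SCF core genes SKP1, CUL1 and RBX1 lie within 0.25 of 0.

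Calls in these lists were sensitive to the setting. Of the 16 genes past the threshold, 0 kept the call without either miR-31 array, 2 (CDKN1A and E2F2) under median alignment and 6 (CDK1, CCNB2, CDKN3, CHEK1, CHEK2 and E2F2) without a variance trend. Without miR-NC replicate 1, 9 kept it, the losses being CDKN2B, UBE2C, FBXO5, CDC25B, TFDP2, TFDP1 and RBL2. Without miR-NC replicate 2, 14 did, the losses being CKS2 and CDC25B. With the authors' values 12 did (lost: CDKN2B, CKS2, CDC25B and TFDP2), and with no filter on dim probes also 12 (lost: CKS2, CDC25B, TFDP1 and RBL2). With the stricter filter on dim probes 15 kept the call, and E2F2 was too dim to be tested.

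Promoters were searched because E2F factors drive several of these genes. RefSeq promoter windows, from 250 bases before to 50 after the start, were at hand for 7 of the 10 genes: CCNE1, CCNA2, CDC25A, SKP2, CKS1B, CDKN1B and CDK4. They were searched on both strands for an E2F motif, spelled as TTTCGCGC or TTTGGCGC or TTTCCCGC or TTTGCCGC, for the cell cycle homology region, spelled as TTTGAA or TTCGAA, and for the CCAAT box. An E2F form was found in 1 of the 7 windows (CDC25A), against 3.32% of 35116 windows of the same length, and a cell cycle homology form in 1 (CKS1B), against 16.4%. Only these spellings were searched, so a window without a match, such as that of CCNA2, may still hold another form of either element. The CCAAT box was found in 4 (CCNA2, CDC25A, CKS1B and CDKN1B), against 34.6% of all windows. In each of these 4 a copy began between 60 and 50 bases before the start, a stretch chosen after the matches were seen, where 3.17% of all windows hold one.

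The 4 windows with a CCAAT box near the start are printed from 90 to 21 bases before it, 5′ to 3′ on the strand of the gene. Capitals mark the motifs, with the CCAAT box of CCNA2 and CDC25A on the opposite strand, the E2F form of CDC25A to the right of its CCAAT box, and the cell cycle homology form of CKS1B near the right end. No 2 matches overlapped. Positions are GRCh38.p14: chr4:121823904-121823973 minus for CCNA2, chr3:48188438-48188507 minus for CDC25A, chr1:154974591-154974660 plus for CKS1B and chr12:12717278-12717347 plus for CDKN1B.
CCNA2: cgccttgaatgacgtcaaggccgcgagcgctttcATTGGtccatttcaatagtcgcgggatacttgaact
CDC25A: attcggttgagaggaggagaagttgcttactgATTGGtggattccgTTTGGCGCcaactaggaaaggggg
CKS1B: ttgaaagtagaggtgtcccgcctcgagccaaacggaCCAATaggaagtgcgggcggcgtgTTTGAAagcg
CDKN1B: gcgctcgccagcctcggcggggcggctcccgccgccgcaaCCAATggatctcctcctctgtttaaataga

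In the order printed, these 4 genes had log2 changes of −1.56, −0.95, −0.33 and 0.06. Whether the CCAAT box bears on the change was not tested. Matching letters are no proof of binding, and factor occupancy was not measured.

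**Figure D4:**
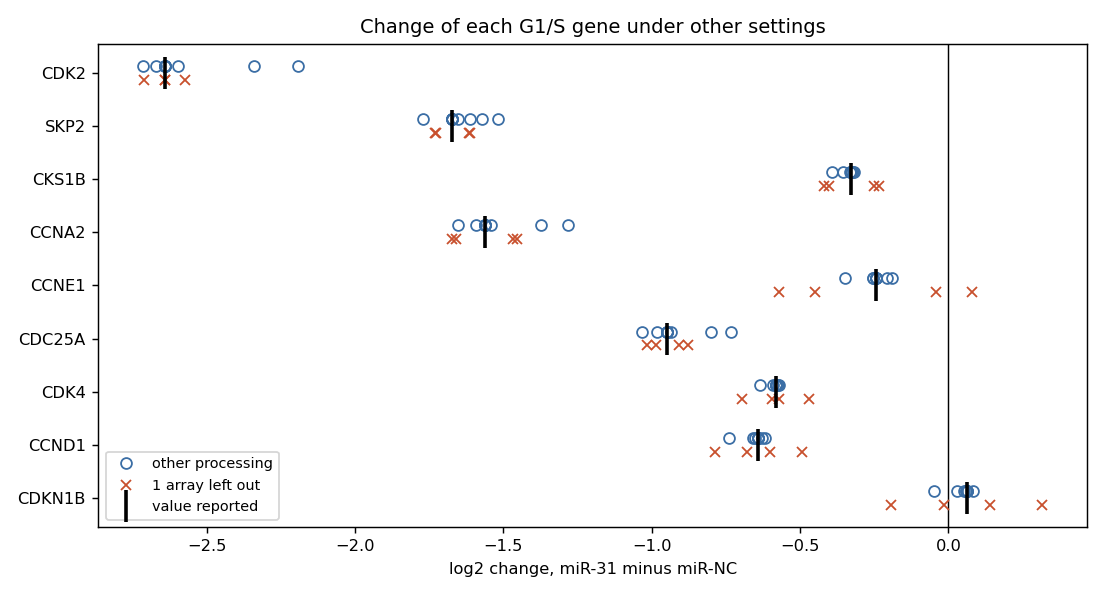
log2 change (miR-31 minus miR-NC) of the 9 tested G1/S genes as reported (black bars), under other processing (blue circles) and with 1 array left out (red crosses). CDK2 ran from −2.71 to −2.19 and SKP2 from −1.77 to −1.52, while CCNE1 and CDKN1B fell on both sides of 0.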

How the data were processed

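Messenger RNA was read on Illumina bead arrays from 4 samples. The deposited table holds non-normalized intensity, on a linear scale per the file headers, and was made with BeadStudio per the submitters' processing notes. Not given in the sources used here are its version, its background setting and the method behind the authors' normalized values. The deposited detection score rises with brightness, so 1 minus it was used as detection p. The authors' own normalized intensity values, linear with equal medians, were raised to a floor of 16 and served as an alternative. Intensities were corrected with limma 3.58.1 in R 4.3.3 (neqc: offset of 16, quantile step, log2). The fit (lmFit, eBayes with trend) was two-sided, adjusted by Benjamini-Hochberg over 18354 tested probes (38.9%), with a threshold of 0.05. The fit was also run on simulated data whose changes were larger than most of those called here. That run does not bear on smaller changes. There were 2 residual and 7.19 prior degrees of freedom. All log2 values come from this scale, not from a log2 column the authors deposited. The number of arrays limits the precision.

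Probes with 1 symbol in the platform annotation were named through Entrez identifiers (30113 probes). A gene was read at its tested probe with the highest mean. Named genes were the 10 members, up to 5 genes of smallest p in each list, and the 5 nearest genes to CDK2 and to SKP2; CCND3, SKP1, CUL1, RBX1, FBXW7 and RB1 were added after their values were seen. The members and lists were chosen with earlier results of these data known. Array left out means left out of the fit, after normalization of all 4. Other settings were run one by one, of which the authors' values change background, normalization and floor together, and the stricter filter both its cut and the arrays it needs: uncorrected background or a larger offset (50), cyclic loess or aligned medians for quantiles, the authors' values, every probe or only those with detection p under 0.01 throughout, a constant prior variance, a block for the replicate number, a mean over each gene's probes, a threshold of 0.1, and the loss of each array.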

Additional observations from a re-analysis of the deposited data

How the results depend on the processing

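Of the G1/S genes, CDK2, SKP2, CCNA2, CDC25A, CDK4, CCND1 and CKS1B kept a negative value in all 14 alternatives. CCNE1 changed sign, from −0.57 to 0.079 with 1 array left out, and so did CDKN1B, from −0.19 to 0.32 with 1 array left out and at −0.047 under median alignment. None of these passed the threshold. The median log2 change, −0.64 with all arrays, ran from −0.79 to −0.59 when 1 array was left out. Setting CDK2 and SKP2 aside, the 4 genes past the threshold became 0 under median alignment and 1 (CCNA2) with the authors' values, with no filter or with no variance trend; with 1 array left out they numbered 0 to 3. Over the whole array, 1132 probes and 824 genes passed. With 1 array left out, the count of probes ran from 0 to 2085 and that of genes from 0 to 1330. Under median alignment 106 probes and 63 genes passed, with no variance trend 359 and 268, and at a threshold of 0.1, 2033 and 1433. With the replicate number as a block 2536 probes and 1694 genes passed, and the same 4 members; the repeats share only a number in the labels, and the deviations of same-numbered arrays correlated at 0.22 across probes. Under median alignment 57.5% of the called probes were higher, with the block 47.6% and with no variance trend 20.1%, against 34.0% as reported. The cause of these shifts was not tested. Signal over background limits the 6 dim probes, CCNE2 among them.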
